A study of Mus musculus with 4 samples.

Results

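Clustered protocadherins are neuronal cell-surface adhesion proteins encoded by 3 neighbouring gene clusters, called alpha, beta and gamma. They were taken as all genes whose symbol follows the Pcdha, Pcdhac, Pcdhb or Pcdhg pattern, and 57 of the 32285 genes in the files were found: 14 alpha, 22 beta and 21 gamma members. Each member has its own promoter and its own first exon, which encodes the extracellular part. In the alpha and gamma clusters this exon is spliced to exons that all members of the cluster share, whereas beta members have none. A neuron is known to use only a few of them, chosen largely at random and together with the DNA-looping protein CTCF, and the combination serves as a surface label by which neurons recognise their own branches. The C-type members at the ends of the alpha and gamma clusters are known to be used more evenly between neurons.

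Cortex nuclei came from 5-month-old mice of 2 genotypes, Setdb1-CK-cKO and wildtype, all listed as C57BL/6, each with 2 animals and a 10x 3′ library from each animal (called KO and WT replicates 1 and 2 here). Setdb1 encodes a histone H3 lysine-9 methyltransferase. CK, and with it the cells in which the gene is deleted, is not explained in the labels. The mutant is a conditional knockout, and the labels name no allele, Cre driver or littermate status.

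The KO libraries held 11790 and 13902 barcodes and the WT libraries 14493 and 14365, of which 11176, 13268, 13882 and 13712 nuclei were kept. Libraries shared 48 to 64 barcode sequences per pair. Setdb1 in excitatory neurons measured 72.3 and 67.0 CPM in KO and 71.6 and 67.1 CPM in WT. A 3′ tag can come from outside a deleted part, so this checks nothing. By Xist and the Y-linked gene Uty, KO replicate 1 has the male and KO replicate 2 the female pattern, opposite to the sex listed for both. WT replicate 1 has the male and WT replicate 2 the female pattern, as listed, so each genotype still holds 1 library of each pattern. Of the kept nuclei 48620 of 52038 fell in 30 named clusters, named from marker genes, with the protocadherins left out of the clustering.

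Levels are counts per 1000000 UMIs (CPM) of the nuclei of a class summed per library, and fold changes are log2, KO over WT, ± standard error. The call rule was edgeR quasi-likelihood with Benjamini-Hochberg adjustment over all genes of the class and a threshold of 0.05, with n = 2 animals per genotype throughout. The animals are separate, but 2 per genotype give little information on spread. Counts at an unadjusted p under 0.05 are given without the share of all genes, so nothing is read from them. Genes named because they passed were picked on these same libraries, so non-overlap of their values adds no support.

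All 57 members lie on the forward strand of chromosome 18 (GRCm38), with alpha at chr18:36930184-37187661, beta at chr18:37264938-37524479 and gamma at chr18:37661793-37841873. The exon sequence that a member shares with no other gene of its cluster covers a median of 2494 bases in alpha, 3714 in beta and 2637 in gamma. A median of 53.4% of the exon bases of alpha members and 44.6% of those of gamma members are shared within the cluster. A read from the shared 3′ exons cannot be given to 1 member, so in exons alpha and gamma members can be told apart only by sequence of their own, mostly first exons. Pcdha1 and Pcdhga1, the first of their clusters, also have 6532 and 3913 bases of intron that no other member covers, and no other alpha or gamma member has any. The first exon of a later alpha or gamma member lies within the span of the members before it. A read there could thus come from unspliced RNA of an earlier member, and the part of such reads was not tested. Whether reads in introns were counted is not given in the sources used here. Own exon sequence ranges from 1570 to 8695 bases, and levels are therefore compared between genotypes and classes, not between members. The symbol Pcdha11 is given to 2 genes in the files, ENSMUSG00000007440 (10th in the cluster) and ENSMUSG00000102206 (11th), which are kept apart. Another 17 genes lie between or within the clusters, most of them unnamed antisense transcripts. Whether counting used strand is not given in the sources used here, and reads of a member and of an antisense gene over it could not be told apart without it. Before the start of the next member, 8 alpha members, 1 beta member and 12 gamma members have an antisense gene over them.

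In excitatory neurons, members of all 3 clusters rose in the knockout and none fell. The summed level of all members was 221 and 216 CPM in KO libraries and 97.5 and 105 CPM in WT libraries, 2.16 times as high, and 2.08 to 2.24 times when each library was left out in turn. The alpha cluster reached 39.5 and 33.7 CPM in KO against 14.2 and 15.8 CPM in WT (2.44 times), the beta cluster 89.7 and 91.4 CPM against 39.0 and 42.9 CPM (2.21 times), and the gamma cluster 91.7 and 91.2 CPM against 44.3 and 46.5 CPM (2.01 times). The groups did not overlap in any of the 3 sums.

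Of the 57 members 54 passed the filter on low counts, 27 passed the test upwards and 0 downwards (also 0 with DESeq2), and 27 did not pass. With DESeq2 21 passed upwards, and with no filter on low counts 12 did, where the share of all genes up was also lower (0.678%). An unadjusted p under 0.05 was reached by 41, all with a positive change. The share of all genes at that p is not given. A member can meet the low-count filter through its KO counts alone. The sign of the changes and the medians below are therefore not read as support. Over all 19128 genes tested in excitatory neurons, 3.04% passed upwards and 1.38% downwards. The calls comprised 4 of the 13 alpha members tested, 11 of the 21 beta members and 12 of the 20 gamma members. The median log2 fold change was 0.94 in alpha, 0.94 in beta and 1.06 in gamma, against 0.00415 over all genes. Among the 55 members with at least 20 UMIs over the 4 libraries, 47 had both KO libraries above both WT libraries and 1 had both below. Of all genes with as many UMIs, 29.6% had both KO libraries above. Untested members were Pcdhac1, Pcdhgb1 and Pcdhb1, the last with 1 UMI in all excitatory neurons.

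**Figure D1:**
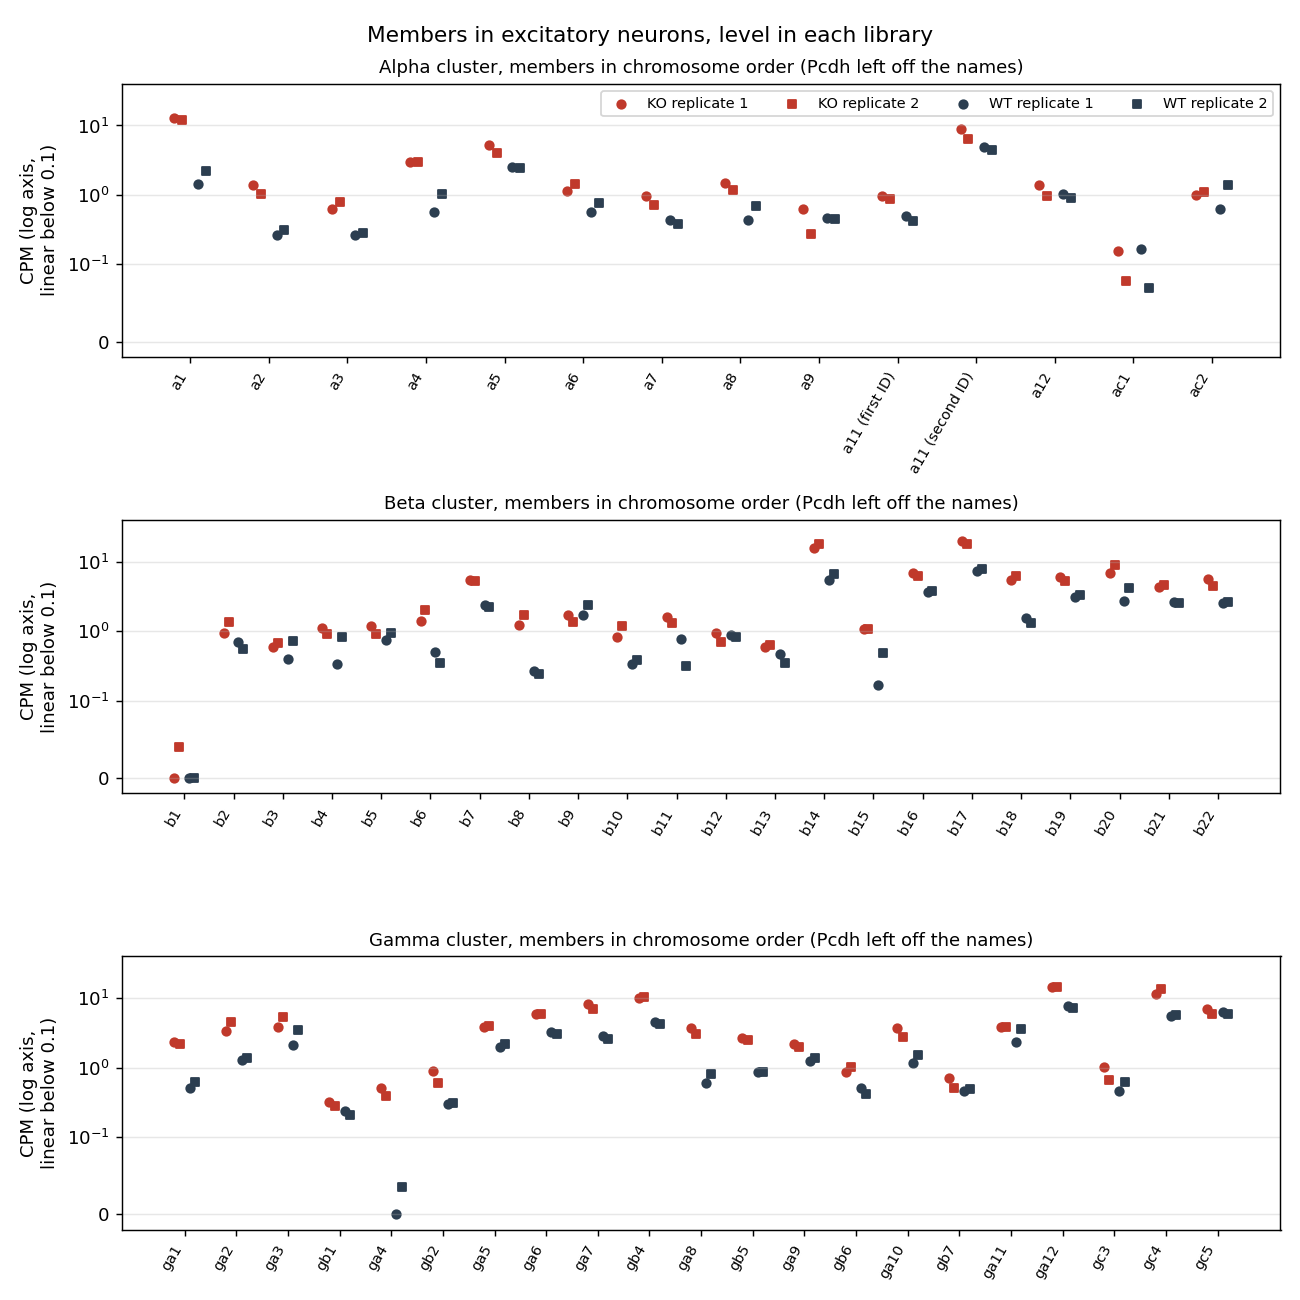
Level of each member in excitatory neurons (CPM, log axis that is linear below 0.1), in chromosome order within the alpha, beta and gamma clusters, with 1 point per library, KO left of WT. KO points lie above WT points for most members, with Pcdha1 at 12.6 and 11.99 CPM in KO against 1.44 and 2.20 CPM in WT, and they overlap for Pcdhac2 at the end of the alpha cluster.

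In the alpha cluster the largest changes were those of Pcdha1, Pcdha2 and Pcdha4. Pcdha1, the first, measured 12.6 and 11.99 CPM in KO against 1.44 and 2.20 CPM in WT (log2 fold change 2.73 ± 0.193, edgeR adjusted p = 0.000134). Pcdha2 measured 1.38 and 1.03 CPM in KO against 0.268 and 0.314 CPM in WT (2.01 ± 0.365, edgeR adjusted p = 0.0195). The fourth, Pcdha4, measured 3.01 and 2.97 CPM in KO against 0.570 and 1.05 CPM in WT (1.86 ± 0.288, edgeR adjusted p = 0.00977). Both KO libraries lay above both WT libraries for each of these. With no filter on low counts Pcdha2 (edgeR adjusted p = 0.0794) and Pcdha4 (edgeR adjusted p = 0.0712) did not pass, nor did Pcdha2 with DESeq2 (adjusted p = 0.0665). Pcdha5, at 5.18 and 3.96 CPM in KO against 2.52 and 2.41 CPM in WT, passed narrowly (0.86 ± 0.198, edgeR adjusted p = 0.0480) and no longer did without KO replicate 1, WT replicate 1 or WT replicate 2, with DESeq2, with no filter or with doublets kept.

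The smallest alpha changes lay in the second part of the cluster. Pcdha9 measured 0.633 and 0.277 CPM in KO and 0.470 and 0.454 CPM in WT (-0.05 ± 0.464), and Pcdhac2, the last member and a C-type, 0.989 and 1.11 CPM in KO and 0.638 and 1.40 CPM in WT (0.02 ± 0.382). Neither passed, and their groups overlapped. The C-type Pcdhac1 had 4 and 2 UMIs in KO and 5 and 2 UMIs in WT. Taken over the first 7 members, the summed level was 24.9 and 22.9 CPM in KO and 6.07 and 7.40 CPM in WT, 3.55 times as high, and 4 of the 7 passed. Over the last 7 it was 14.6 and 10.8 CPM in KO and 8.09 and 8.42 CPM in WT, 1.54 times as high, without overlap, and 0 of the 6 tested passed with edgeR (0 with DESeq2 also), though 3 had an unadjusted p under 0.05, all upwards. Of these Pcdha8 had the largest log2 fold change, 1.21. Without Pcdha1, which has the intron of its own, the first members summed to 2.36 times the WT level. The rank correlation of log2 fold change with order was -0.84 over 13 members and -0.79 without Pcdha1. With the WT level it was -0.33 and with the length of own exon sequence -0.04. These are descriptions over members that share the same 4 libraries.

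The beta cluster showed no such order. Pcdhb17 measured 19.8 and 18.04 CPM in KO against 7.45 and 7.79 CPM in WT (1.28 ± 0.121, edgeR adjusted p = 0.000693), and Pcdhb14 15.7 and 18.04 CPM against 5.54 and 6.67 CPM (1.44 ± 0.146, edgeR adjusted p = 0.000999). Pcdhb18, next to Pcdhb17, measured 5.50 and 6.21 CPM in KO against 1.54 and 1.33 CPM in WT (1.99 ± 0.196, edgeR adjusted p = 0.000856). Pcdhb7, in the first part of the cluster, measured 5.50 and 5.34 CPM against 2.42 and 2.24 CPM (1.19 ± 0.172, edgeR adjusted p = 0.00704). In each of these 4 genes the KO libraries were well above the WT libraries and close to each other.

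Some other beta members did not pass, among them Pcdhb12 and Pcdhb3. Pcdhb12 measured 0.950 and 0.712 CPM in KO and 0.872 and 0.838 CPM in WT (-0.07 ± 0.312), and Pcdhb3 0.594 and 0.673 CPM in KO and 0.403 and 0.734 CPM in WT (0.13 ± 0.399). Pcdhb9, picked here after its values were seen, had the lowest log2 fold change of the 54 members tested (-0.45 ± 0.260, edgeR adjusted p = 0.369), with 1.70 and 1.35 CPM in KO and 1.71 and 2.38 CPM in WT. The last member, Pcdhb22, rose to 5.70 and 4.51 CPM in KO against 2.58 and 2.62 CPM in WT (0.94 ± 0.187, edgeR adjusted p = 0.0282). Of the first 11 members 3 of the 10 tested passed and their summed level was 1.92 times as high in KO. Of the last 11, 8 of 11 passed and the sum was 2.29 times as high. The rank correlation of log2 fold change with order was 0.16 over 21 members, while that of the WT level with order was 0.54.

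In the gamma cluster, A-type and B-type members (Pcdhga and Pcdhgb, which alternate along the chromosome) rose, and so did 1 C-type. Pcdhga8 measured 3.72 and 3.05 CPM in KO against 0.604 and 0.803 CPM in WT (2.23 ± 0.257, edgeR adjusted p = 0.00201). Pcdhga7 measured 8.19 and 7.004 CPM against 2.82 and 2.55 CPM (1.47 ± 0.168, edgeR adjusted p = 0.00196), and Pcdhgb4 10.2 and 10.4 CPM against 4.56 and 4.23 CPM (1.20 ± 0.140, edgeR adjusted p = 0.00210). Pcdhga1, the first member, measured 2.33 and 2.18 CPM in KO against 0.503 and 0.629 CPM in WT (1.96 ± 0.271, edgeR adjusted p = 0.00532). The KO and WT values of these members did not overlap. Pcdhga4, also picked after its values were seen, passed (edgeR adjusted p = 0.0259) but had 13 and 10 UMIs in KO libraries and 0 and 1 in WT libraries, a ratio of 26.6 with a 95% counting interval of 4.32 to 1095. It did not pass without WT replicate 1 (edgeR adjusted p = 0.143), with no filter (0.107) or with DESeq2 (0.125), and was too low to be tested without either KO library.

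Of the 3 gamma C-types, Pcdhgc4 measured 11.6 and 13.5 CPM in KO against 5.57 and 5.76 CPM in WT (1.12 ± 0.142, edgeR adjusted p = 0.00340). Its neighbours did not pass: Pcdhgc5, the last member, measured 7.04 and 5.94 CPM in KO and 6.31 and 5.90 CPM in WT (0.06 ± 0.152), and Pcdhgc3 1.03 and 0.673 CPM in KO and 0.470 and 0.629 CPM in WT (0.60 ± 0.367). Pcdhgb7 did not pass either (0.32 ± 0.373). Over both clusters 1 of 4 tested C-types passed, with a median log2 fold change of 0.33, against 26 of 50 other members and a median of 0.99. The first 10 gamma members summed to 2.29 times and the last 11 to 1.84 times the WT level. The rank correlation of log2 fold change with order was -0.57 over 20 members and -0.52 without Pcdhga1.

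**Figure D2:**
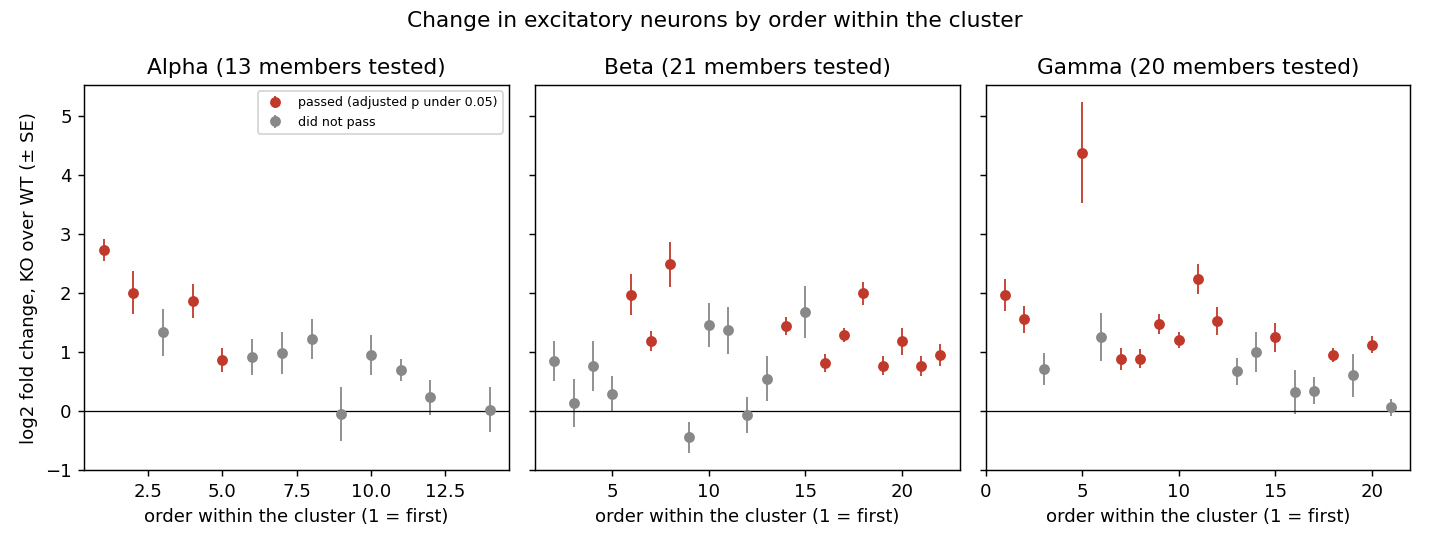
Log2 fold change, KO over WT, in excitatory neurons (± SE) against the order of the member within its cluster, with members that passed in red and the others in grey. The alpha values are highest at Pcdha1 (2.73) and lowest at Pcdha9 (-0.05), with 0.02 at Pcdhac2, the beta values show no such slope, and in the gamma cluster Pcdhga4 stands highest and Pcdhgc5 lowest.

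Genes lying between the members rose too. Of the 17 other genes inside the locus 10 were tested in excitatory neurons and 6 rose (3 with no filter on low counts), where 3.04% of all genes did. The largest change was that of 3222401L13Rik, a transcript on the members' strand at chr18:37655451-37661742, which ends just before Pcdhga1 starts. It measured 86.9 and 92.2 CPM in KO against 2.82 and 2.34 CPM in WT (5.08 ± 0.135, edgeR adjusted p = 6.28e-07). Gm26672, antisense within the gamma cluster, measured 279 and 302 CPM in KO against 105 and 125 CPM in WT (1.31 ± 0.097, edgeR adjusted p = 0.000167). Gm37165, also antisense there, measured 9.46 and 7.91 CPM against 2.82 and 3.70 CPM (1.38 ± 0.180). Inside the alpha cluster the antisense transcripts Gm10545 (1.36 ± 0.191) and Gm10544 (0.52 ± 0.0978) rose. Gm10544 no longer passed without WT replicate 1. Taf7, which encodes a subunit of the general transcription factor TFIID and lies between beta and gamma, measured 10.96 and 9.46 CPM in KO against 5.27 and 4.89 CPM in WT (0.98 ± 0.145). KO and WT libraries did not overlap for any of these 6, which adds no support, since they were picked by the test on the same libraries.

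Of 42 genes within 1 Mb on either side, 39 were tested in excitatory neurons, and 0 rose and 1 fell by edgeR quasi-likelihood, where 3.04% of all genes rose and 1.38% fell, so the flanking genes stood near the share of all genes. At an unadjusted p under 0.05 these counts were 2 and 3, DESeq2 gave 0 and 1, without WT replicate 2 edgeR called 1 up, and without KO replicate 1 it called 2 down. The median log2 fold change was -0.05. Diaph1, a formin gene that lies 1.7 kb beyond the last member, measured 40.2 and 36.6 CPM in KO and 40.5 and 39.9 CPM in WT (-0.10 ± 0.0990). On the other side the nearest gene tested was Zmat2, 130.5 kb before Pcdha1, at 38.3 and 43.0 CPM in KO and 32.9 and 35.8 CPM in WT (0.21 ± 0.109). Neither passed. The gene that fell was AC133601.1, which starts 759.7 kb beyond the clusters, at 67.2 and 59.5 CPM in KO against 100.3 and 106 CPM in WT (-0.74 ± 0.0858, edgeR adjusted p = 0.00214). In inhibitory neurons, where 1% of all genes rose, 4 of 7 genes inside the locus did. Of 35 flanking genes 1 did, near the share of all genes: AC121886.1, at 9.97 and 9.43 CPM in KO against 3.46 and 4.09 CPM in WT (1.33 ± 0.309, edgeR adjusted p = 0.0415).

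**Figure D3:**
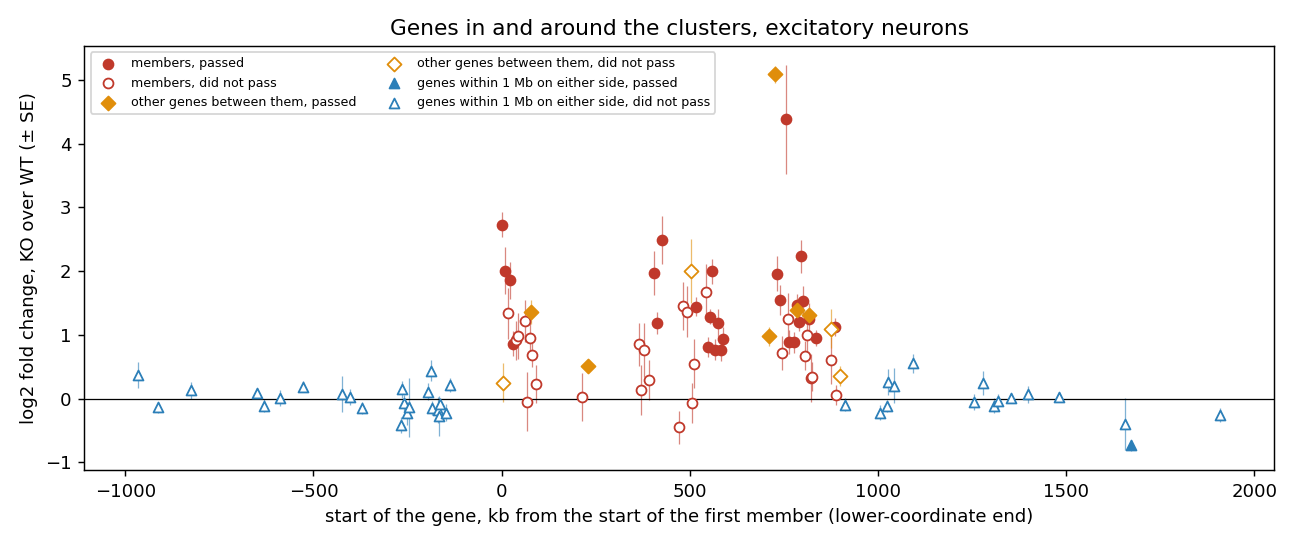
Log2 fold change, KO over WT (± SE), in excitatory neurons for members (circles), other genes inside the locus (diamonds) and genes within 1 Mb on either side (triangles), by distance of the gene's start from that of Pcdha1; filled symbols passed the test. Filled symbols above 0 occur inside the locus, up to 5.08 for 3222401L13Rik, and the single filled triangle is AC133601.1 at -0.74.

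A list of 53 genes was looked at, of genes that act with SETDB1 or on the protocadherin promoters and of partners of the protocadherin proteins. The files hold 52 of them, and 51 were tested in excitatory neurons. Of these 1 rose, 2 fell and 48 did not pass, with a median log2 fold change of -0.04. Over all genes 3.04% rose and 1.38% fell, so these counts are near the background and nothing is read from them about the list. Without KO replicate 1, 6 fell, without WT replicate 1, 1 did, and with no filter 0 did. Atf7ip, whose protein binds and stabilises SETDB1, measured 123 and 126 CPM in KO against 62.9 and 71.6 CPM in WT (0.86 ± 0.0862, edgeR adjusted p = 0.000952). Pds5b, a cohesin regulator, fell to 58.6 and 58.2 CPM in KO, against 80.9 and 79.2 CPM in WT (-0.48 ± 0.0797, edgeR adjusted p = 0.0126). Ptk2, which encodes focal adhesion kinase, a binding partner of protocadherin tails, fell to 325 and 352 CPM in KO, against 432 and 422 CPM in WT (-0.36 ± 0.0769, edgeR adjusted p = 0.0359). Ctcf measured 50.8 and 49.0 CPM in KO and 49.6 and 47.5 CPM in WT and did not pass (0.01 ± 0.0916). By group, Pds5b was the call among 11 looping genes, Atf7ip that among 14 genes of H3K9 methylation and Ptk2 that among 18 protein partners, and none of 8 genes of DNA methylation and silencing passed (1 at an unadjusted p under 0.05).

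The higher summed level was seen in each excitatory subclass. Across the 12 subclasses the sum was 191 to 271 CPM in KO libraries and 88.2 to 132 CPM in WT libraries, the ratio was 1.97 to 2.44, and the groups did not overlap in any. For the order of levels in WT, L5 ET neurons (88.8 and 89.2 CPM) were lowest and L5/6 NP neurons (112 and 132 CPM) highest, and each subclass overlapped with its neighbours in the order of means. Smaller subclasses left fewer members to test. In L6 CT neurons 10 of 24 tested members rose (2.85% of all genes rose there). It was 5 there without WT replicate 1, 6 without KO replicate 2 or WT replicate 2, and 1 with DESeq2.

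In L2/3 IT neurons 8 of 33 rose (1.29% of all genes), in the Il1rapl2 Deptor subclass, which carries markers of both L4/5 IT and L5 IT neurons, 6 of 23 (2.09%), and in L6 IT neurons 5 of 16 (1.74%). In L4/5 IT neurons 2 of 13 rose (1.01%), in L5 ET neurons 1 of 9 (1.17%), and in the Ndst4 Abi3bp subclass 1 of 15 (0.475%). With edgeR quasi-likelihood 0 passed in Tshz2 Tnxb (3 tested, 2 at an unadjusted p under 0.05, 0.939% of all genes up), L6b (1 tested, 0 at that p, 0.901%) and Car3 neurons (1 tested and at that p, 0.515%), and none was tested in L5/6 NP and Pecam1 Ntng1 neurons (0.712% and 0.801%). DESeq2 also called 0 in these. Without 1 library the counts moved by over 1.5 times in most of the subclasses with calls. With no filter on low counts 0 passed in the Il1rapl2 Deptor subclass and 20 in L2/3 IT neurons, and with DESeq2 0 passed in L6 IT, L4/5 IT, L5 ET and Ndst4 Abi3bp neurons. The counts were 4 without either WT library and 17 without KO replicate 1 in L2/3 IT neurons, 3 without WT replicate 1 in the Il1rapl2 Deptor subclass, and 1 to 3 in L6 IT neurons. In L4/5 IT neurons they were 0 without KO replicate 2 and 1 without WT replicate 1, and in L5 ET and Ndst4 Abi3bp neurons 0 without either WT library, with 3 in the Ndst4 Abi3bp subclass without KO replicate 1.

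Pcdha1 passed in 6 of these subclasses. In L6 CT neurons, which project to the thalamus, it measured 15.6 and 15.3 CPM in KO against 2.45 and 1.37 CPM in WT (2.94 ± 0.335, edgeR adjusted p = 9.38e-06). In L2/3 IT neurons it measured 12.2 and 12.2 CPM against 1.08 and 2.84 CPM (2.57 ± 0.325, edgeR adjusted p = 0.00333), and in L5 ET neurons 10.4 and 7.13 CPM against 1.82 and 1.47 CPM (2.36 ± 0.535, edgeR adjusted p = 0.0234). The L5 ET values are 16 and 12 UMIs in KO and 4 and 3 in WT. In L6 IT neurons Pcdha1 had 25 and 19 UMIs in KO and 5 and 6 in WT. It met the low-count filter in these 2 through its KO counts alone, so the number of subclasses is not read as support. Pcdhb17 and Pcdhb14 passed in L6 CT, L2/3 IT, Il1rapl2 Deptor, L6 IT and L4/5 IT neurons, and L4/5 IT neurons had no other call. Pcdhb18 passed in L2/3 IT neurons, at 5.36 and 7.19 CPM in KO against 1.22 and 0.355 CPM in WT (3.01 ± 0.446, edgeR adjusted p = 0.00941). Whether these differences between subclasses exceed error was not tested.

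**Figure D4:**
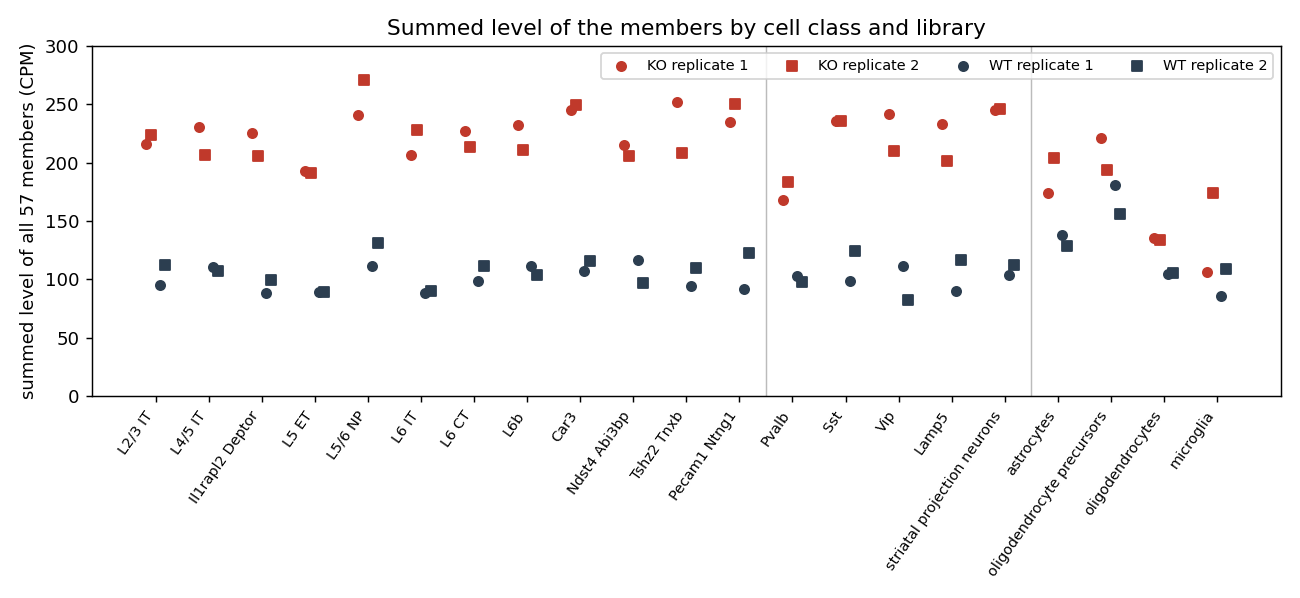
Summed level of all 57 members (CPM) in each excitatory subclass (left), interneuron type and striatal projection neurons (middle) and glial class (right), with 1 point per library, KO left of WT. KO libraries lie above WT libraries in all neuron groups, for example 221 and 216 CPM against 97.5 and 105 CPM over all excitatory neurons, and nearer to them in the glial classes.

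In inhibitory neurons members rose too, with fewer calls. Their summed level was 212 and 206 CPM in KO and 101 and 106 CPM in WT, 2.02 times as high. The part of free RNA in these sums, described with the glia below, was not tested. Of 28 members tested 4 rose, 0 fell and 24 did not pass, where 1% of all genes rose and 0.362% fell. Of 30 members with at least 20 UMIs, 25 had both KO libraries above both WT libraries, as had 24.2% of all such genes. All 28 log2 fold changes were positive, with a median of 0.998. A member can meet the low-count filter through its KO counts alone, so this sign is not read as support. Without WT replicate 1 the calls were 2, without WT replicate 2 or without KO replicate 1 they were 7, and DESeq2 made 1.

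Pcdhga7 measured 7.98 and 7.86 CPM in KO inhibitory neurons against 0.742 and 0.721 CPM in WT, which are 3 UMIs in each WT library (3.36 ± 0.463, edgeR adjusted p = 0.000522). Pcdhb14 measured 13.96 and 16.50 CPM against 5.44 and 6.97 CPM (1.28 ± 0.257, edgeR adjusted p = 0.0175). Pcdhb18 measured 4.27 and 8.64 CPM against 1.48 and 0.481 CPM (2.69 ± 0.549, edgeR adjusted p = 0.0193). Pcdha1 measured 9.40 and 9.17 CPM against 2.47 and 3.61 CPM (1.58 ± 0.334, edgeR adjusted p = 0.0231). The groups did not overlap in these 4 members, though the KO libraries were apart for Pcdhb18.

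Set against excitatory neurons directly, 0 of 49 members had another change in inhibitory neurons (edgeR quasi-likelihood on the class-by-genotype term, 4 at an unadjusted p under 0.05, 1 without the low-count filter), where 0.755% of all genes did. The smallest adjusted p was 0.116, for Pcdhga7, whose change was 1.90 ± 0.531 larger in inhibitory neurons. Pcdha1 changed 1.17 ± 0.378 less there, short of the threshold (edgeR adjusted p = 0.240). In WT alone 2 of the 49 were at another level, where 36% of all genes were. Both were lower in inhibitory neurons: Pcdhga7, at 0.742 and 0.721 CPM against 2.82 and 2.55 CPM in excitatory neurons (-1.95 ± 0.467, edgeR adjusted p = 0.00128), and Pcdhga9, at 0.494 and 0 CPM against 1.24 and 1.36 CPM (2 UMIs, edgeR adjusted p = 0.0177). In KO, Pcdhga7 measured 7.98 and 7.86 CPM in inhibitory and 8.19 and 7.004 CPM in excitatory neurons.

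Among interneuron types the summed level of all members was 1.75 times (Pvalb) to 2.33 times (Vip) the WT level, with KO libraries above WT libraries in all 4. By cluster this held in 4 of 4 types for the beta and gamma sums. For the alpha sums, 1.41 to 2.60 times as high, it held in 3 of 4. Pvalb neurons measured 168 and 184 CPM in KO against 103 and 97.6 CPM in WT, Sst neurons 236 and 235 CPM against 98.3 and 124 CPM, Vip neurons 242 and 210 CPM against 111 and 82.6 CPM, and Lamp5 neurons 233 and 202 CPM against 90.0 and 116 CPM. The call among them was Pcdha1 in Sst neurons, 1 of 5 tested (0.57% of all genes up), at 12.9 and 11.3 CPM in KO against 0.855 and 2.59 CPM in WT (2.71 ± 0.646, edgeR adjusted p = 0.0490). These are 13 and 12 UMIs in KO and 1 and 3 in WT, so Pcdha1 met the low-count filter there through its KO counts alone. It did not pass when any 1 of the 4 libraries was left out, or with DESeq2. In Pvalb (6 tested, 0.399% of all genes), Lamp5 (2, 0.322%) and Vip neurons (1, 0.292%) 0 passed with edgeR quasi-likelihood, DESeq2 called 0 as well, and 2, 1 and 1 of them had an unadjusted p under 0.05. Striatal projection neurons in the dissection, an inhibitory class outside the cortex, measured 245 and 246 CPM in KO and 104 and 112 CPM in WT, with 0 of 3 members called by edgeR quasi-likelihood (2 at an unadjusted p under 0.05, 0 with DESeq2, 1 without KO replicate 1, 0.0614% of all genes up). Pbx3 Cpa6 inhibitory neurons, with 678 and 16 nuclei in KO and 321 and 101 in WT, were too few in KO replicate 2 to be tested. Their sums were 231 and 216 CPM in KO and 162 and 183 CPM in WT, 1.29 times as high.

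Glial values have to be read beside free RNA, which nuclei of any class take up in droplets. Slc17a7, the glutamate transporter gene of excitatory neurons, measured 323 and 388 CPM in KO microglia and 362 and 454 CPM in WT microglia, more than in excitatory neurons themselves (258 and 279 CPM in KO, 236 and 261 CPM in WT). Camk2a, another excitatory gene, stood in microglia at 29.2% to 34.4% of its excitatory level. The summed protocadherin level in microglia, immune cells not known for these genes, was 106 and 174 CPM in KO and 85.5 and 109 CPM in WT, which overlap, on 244 UMIs in all. Single members differed there: Pcdhb14 had 7 and 13 UMIs in KO and 1 and 1 in WT. Pcdhga12 had 1 and 6 in KO and 2 and 8 in WT, and neither was tested. The sums in WT excitatory neurons (97.5 and 105 CPM) and WT inhibitory neurons (101 and 106 CPM) lay within the WT microglia values. None of these is read as expression on its own. The KO excitatory sums lay above all 4 microglia libraries.

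Astrocytes measured 174 and 204 CPM in KO and 138 and 128 CPM in WT (1.42 times), oligodendrocytes 135 and 134 CPM and 104 and 105 CPM (1.28 times), and oligodendrocyte precursors 221 and 194 CPM and 181 and 156 CPM (1.23 times). With edgeR quasi-likelihood 0 members passed in any of the 3: 0 of 5 tested in astrocytes (0 at an unadjusted p under 0.05, 0.798% of all genes up), 0 of 7 in oligodendrocytes (3 at that p, 0.227%) and 0 of 3 in precursors (1 at that p, 0.0221%). No member was tested in microglia (0.111% of all genes up), endothelial cells, mural cells or fibroblasts (0% in each). DESeq2 also called 0 in the 3 glial classes tested. By cluster, over these 3 classes and microglia, KO libraries lay above WT libraries in 4 of 4 for the beta sums. For the alpha and the gamma sums they did in 2 of 4 each. The part of free neuronal RNA in these sums was not tested.

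Alpha members gave a smaller share of the sum in astrocytes than in excitatory neurons. They gave 6.05% of the members' UMIs in KO astrocytes (95% Wilson interval 4.07% to 8.92%) and 2.03% in WT astrocytes (1.03% to 3.95%). In excitatory neurons they gave 16.7% in KO (16.1% to 17.5%) and 14.8% in WT (13.9% to 15.7%). In microglia, on fewer UMIs, the share was 5.44% in KO (2.78% to 10.4%) and 9.28% in WT (4.96% to 16.7%), and the WT interval reaches that of WT excitatory neurons. These intervals cover counting error only. In WT astrocytes 6 of 49 members were at another level than in excitatory neurons, 2 higher and 4 lower (edgeR adjusted p under the threshold, as for 49.1% of all genes). Pcdhgc4, a C-type, was the clearest, at 18.8 and 19.8 CPM in WT astrocytes against 5.57 and 5.76 CPM in WT excitatory neurons (1.45 ± 0.256, edgeR adjusted p = 1.75e-07). The second Pcdha11 gene, ENSMUSG00000102206, had 0 UMIs in both WT astrocyte libraries, and 4.83 and 4.47 CPM in WT excitatory neurons.

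Pcdhgc4 also stood in WT oligodendrocyte precursors at 28.3 and 14.8 CPM (1.61 ± 0.380 above excitatory neurons, edgeR adjusted p = 0.000152), and was 1 of 2 members at another level there (29.6% of all genes). In WT oligodendrocytes 7 of 50 members were at another level (56.9% of all genes), 1 higher and 6 lower, and in WT microglia 4 of 50, all lower (42.7%). Pcdhgc4 did not pass between genotypes in these glia: it measured 15.7 and 21.2 CPM in KO astrocytes and 18.8 and 19.8 CPM in WT astrocytes (-0.07 ± 0.319), and 4.55 and 3.16 CPM in KO oligodendrocytes and 6.96 and 7.62 CPM in WT oligodendrocytes (-0.86 ± 0.483). Its change in oligodendrocytes differed from that in excitatory neurons (-2.01 ± 0.512, edgeR adjusted p = 0.0138), the single one of 50 members to do so, where 0.956% of all genes did. In astrocytes the difference fell short (-1.24 ± 0.354, edgeR adjusted p = 0.0588) and 0 of 49 passed (5 at an unadjusted p under 0.05, 0.865% of all genes passed). In precursors 0 of 49 and in microglia 0 of 50 passed (3 in each at that p, edgeR, 0.162% and 0.171% of all genes).

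3222401L13Rik separated the classes further. In WT it measured 44.6 and 41.1 CPM in astrocytes, 38.8 and 40.2 CPM in oligodendrocytes and 73.5 and 58.5 CPM in microglia, but 2.82 and 2.34 CPM in excitatory and 4.70 and 5.05 CPM in inhibitory neurons. In KO it measured 112 and 177 CPM in astrocytes, 55.9 and 79.9 CPM in oligodendrocytes, 108 and 87.9 CPM in microglia, 86.9 and 92.2 CPM in excitatory and 74.1 and 115 CPM in inhibitory neurons. It rose in inhibitory neurons (4.25 ± 0.248) and in astrocytes (1.75 ± 0.216, both past the edgeR threshold), and its changes in oligodendrocytes (0.79 ± 0.199) and microglia (0.56 ± 0.242) did not pass. The astrocyte change was 3.40 ± 0.224 smaller than that in excitatory neurons (edgeR adjusted p = 1.04e-32).

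Few members were detected per nucleus, and more in the knockout, where the summed level was higher too. To compare nuclei of unlike depth, each was thinned to 2000 UMIs and shallower ones were left out (262 and 1054 excitatory nuclei in KO, 322 and 551 in WT). A mean of 0.433 and 0.437 different members then had a UMI per excitatory nucleus in KO libraries, against 0.196 and 0.207 in WT libraries, 2.16 times as many. At least 1 member was seen in 35.4% and 35.2% of KO nuclei and 17.6% and 18.6% of WT nuclei, and 3 or more in 0.920% and 0.953% of KO and 0.0931% and 0.0743% of WT nuclei. Inhibitory nuclei held a mean of 0.433 and 0.391 members in KO and 0.202 and 0.209 in WT. Across the 12 excitatory subclasses the mean was 0.345 to 0.553 in KO libraries and 0.155 to 0.239 in WT libraries, and across the 4 interneuron types 0.337 to 0.556 and 0.170 to 0.238, with no overlap of KO and WT within any of the 16. A UMI count sees only a part of the RNA in a nucleus, so these are members detected, not members used. Nearly all detections rested on 1 UMI, so at equal depth these numbers follow from the summed level. They restate its difference between genotypes and are not a separate result.

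**Figure D5:**
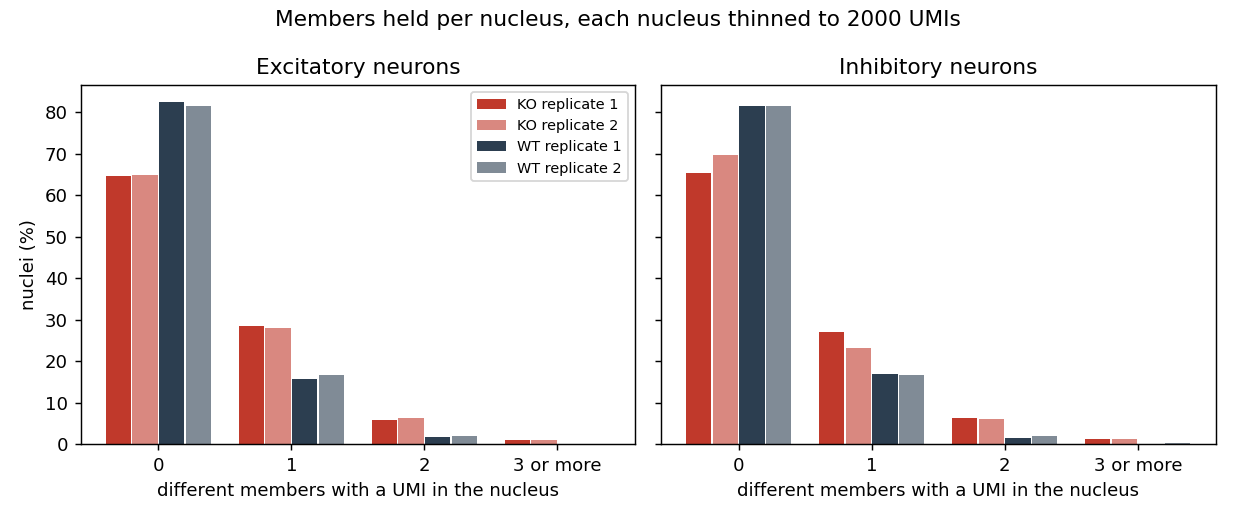
Share of excitatory (left) and inhibitory (right) nuclei (%) in which 0, 1, 2 or at least 3 different members had a UMI, after thinning to 2000 UMIs, with 1 bar per library, KO left of WT. Nuclei with no member made up 64.6% and 64.8% of KO and 82.4% and 81.4% of WT excitatory nuclei.

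For glia the thinning had to be shallower, since few of their nuclei reach 2000 UMIs. At 1000 UMIs microglia held a mean of 0.115 and 0.179 members in KO and 0.0659 and 0.128 in WT, which overlap, and astrocytes 0.176 and 0.218 in KO and 0.142 and 0.122 in WT. At the same depth excitatory nuclei held 0.219 and 0.218 in KO and 0.0986 and 0.108 in WT. WT excitatory values thus lay within those of WT microglia at equal depth (112 microglia nuclei or more per library). The KO excitatory values lay above all 4 microglia libraries.

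By single member, unthinned, a Pcdha1 UMI was found in 5.38% and 4.10% of KO excitatory nuclei and 0.636% and 0.838% of WT ones. In microglia, with median depths of 758 to 881 UMIs, against 3154 to 4048 UMIs in excitatory nuclei, the share was 0.190% and 0.152% in KO and 0.361% and 0% in WT, the last being 0 of 579 nuclei, which allows a share of up to 0.518%. Pcdhb17 was found in 8.10% and 5.95% of KO excitatory nuclei and 3.18% and 3.00% of WT ones, against 0.380% and 1.06% of KO and 0.181% and 0.345% of WT microglia. Nearly all detections rested on 1 UMI: in excitatory neurons 3.03% and 2.30% of member-and-nucleus combinations had 2 or more UMIs in KO and 1.68% and 1.28% in WT.

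Which members shared a nucleus was spread over many combinations. In unthinned excitatory nuclei 1380 of 5804 and 1265 of 7248 KO nuclei held at least 2 members, against 499 of 6764 and 504 of 7276 WT nuclei, and the most in 1 nucleus was 7 and 7 in KO and 5 and 6 in WT. Of the 1596 possible pairs of members 829 and 751 were seen together in KO libraries and 367 and 396 in WT libraries. Pcdhb14 with Pcdhb17 was the most frequent pair in both KO libraries, in 53 and 34 nuclei (0.913% and 0.469%). In both WT libraries it was Pcdhb16 with Pcdhb17, in 12 and 10 nuclei. Pcdhb14 and Pcdhb17 had the highest mean KO levels of the members in excitatory neurons (16.9 and 18.9 CPM). Pair numbers expected from level and depth were not worked out, so no preferred pairing is read from these counts. More members and pairs per nucleus in KO are not read as more than the higher summed level. Nuclei with members of all 3 clusters made up 2.36% and 0.993% in KO and 0.148% and 0.247% in WT.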

How the data were processed

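Single-nucleus 3′ libraries (10x) were made from cortex of 4 animals. Per the submitters' processing notes the authors used Cell Ranger 7.1.0 with mm10, and the deposited values are raw UMI counts per gene and barcode, with no normalization. The sources used here do not say whether intron reads, strand or removal of free RNA were used. A nucleus needed 500 UMIs, 300 genes and no more than 5% mitochondrial UMIs, doublets were removed per library with Scrublet at an expected 10% (4.14% to 5.11% marked), and nuclei were clustered in scanpy 1.11.5 (2000 variable genes, 30 components, 15 neighbours, Leiden resolution 1) without the 57 members. Clusters were named from marker lists, and 11 of 41 stayed unnamed. Libraries totalled 38314394 to 45605971 UMIs.

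Counts were summed per library and class. Classes with at least 30 nuclei in every library were tested with edgeR 4.0.16 under R 4.3.3 (filterByExpr with minimum count 10, TMM, glmQLFit and glmQLFTest, genotype alone), Benjamini-Hochberg adjusted over the class. Classes were compared by a class-by-genotype term beside a library term. The scripts were tested on simulated data. DESeq2 1.42.0 and the other settings were alternatives. Gene order and exon lengths came from GENCODE vM21 (GRCm38). No sequence is printed.

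The members, gene lists and tests were chosen with earlier results of these data known. In excitatory neurons the members named were, per cluster, the 4 with the smallest and 2 with the largest p, the first and last, and all C-types, and elsewhere up to 4 that passed. Of other genes, up to 6 that passed were named.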

Additional observations from a re-analysis of the deposited data

Results flagged for a closer look

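These results were marked because the change between genotypes itself differed between excitatory neurons and another class (edgeR quasi-likelihood on the class-by-genotype term, log2, other class minus excitatory neurons). Pcdhgc4 differed by -2.01 in oligodendrocytes. 3222401L13Rik differed by -4.54 in microglia, -4.33 in oligodendrocytes, -3.43 in their precursors and -3.40 in astrocytes. The antisense transcript Gm26672 differed by 0.45 in inhibitory neurons, -0.79 in astrocytes and -1.03 in oligodendrocytes. Free neuronal RNA reaches glial nuclei, and its part in these differences was not tested.

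Unnamed nuclei, which entered no comparison, held a summed protocadherin level of 200.5 and 215 CPM in KO and 94.1 and 103 CPM in WT, 2.11 times as high.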

How the results depend on the processing

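In excitatory neurons the number of members up was 27, and it was 21 with DESeq2, 27 with RLE size factors, 26 with doublets kept and 12 with no filter on low counts, and 12 members passed under all settings. By cluster, DESeq2 called 2 alpha members, and no filter left 1 alpha, 4 beta and 7 gamma members. Leaving out 1 library gave 3 to 5 alpha, 9 to 11 beta and 10 to 13 gamma members, and 21 members passed in each of the 4 cases. In inhibitory neurons DESeq2 called 1 member, and leaving out 1 library gave 2 to 7. Over the 16 neuron subclasses the calls summed to 34, with 10 by DESeq2 and 14 to 40 when 1 library was left out (21 without KO replicate 2, 14 without WT replicate 1, 19 without WT replicate 2). With no filter on low counts 20 rather than 8 members passed in L2/3 IT, 5 rather than 2 in L4/5 IT, 3 rather than 1 in Ndst4 Abi3bp and 0 rather than 6 in Il1rapl2 Deptor neurons, and with doublets kept 4 passed in L4/5 IT and 6 rather than 10 in L6 CT neurons. With no filter 3 rather than 6 genes inside the locus rose, 0 rather than 2 pathway genes fell, and 1 member had another change in inhibitory than in excitatory neurons. No member fell in excitatory neurons and none passed in the 4 glial classes under any setting. With the low-count filter no member was tested in microglia and few were in the other glia, so the glial result says little about most members.

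The replicate number also marks the sex pattern in the RNA, but 2 pairs do not establish pairing. With the replicate number as a block, 8 alpha, 14 beta and 14 gamma members passed in excitatory neurons (and 11.3% of all genes rose), 15 in inhibitory neurons and 62 summed over subclasses, while 2 flanking genes rose and 3 fell, and 3 pathway genes rose and 8 fell; deviations of same-numbered libraries correlated at 0.556 in excitatory neurons.

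Some changes near 0 in excitatory neurons turned sign when 1 library was left out, and none of these passed. The log2 fold change then ran from -0.75 to 0.41 for Pcdha9, from -0.28 to 0.11 for Pcdhb12, from -0.44 to 0.67 for Pcdhac2, from -0.23 to 0.61 for Pcdhb3 and from -0.0631 to 0.16 for Pcdhgc5. The ratio of members held per nucleus, 2.16, was 2.10 to 2.22 without 1 library and 3.67 when a member needed 2 UMIs in an unthinned nucleus. The gamma order correlation was -0.48 when all members with 20 UMIs entered. Without the first member of the cluster, a setting chosen after seeing the data, it was -0.52 in gamma and -0.79 in alpha.

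Only 2 animals per genotype, low counts (most members under 10 CPM) and free RNA in nuclei of any class limit these values.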
